A study of Mus musculus with 3 samples.

Results

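Gastrocnemius, the mostly fast-twitch muscle of the mouse calf, was compared between an array labelled tamoxifen for 48 h and an array labelled oil for 24 h. These are 2 of the 3 arrays of the series, and the third, tamoxifen for 24 h, is quoted beside them. All the mice were C57BL/CD1 and are labelled Akt_Cre transgenic: per the labels their skeletal muscle makes Akt joined to an oestrogen-binding domain, a fusion protein that accumulates when tamoxifen is given. The controls carry the same transgene and received oil. The promoter that drives the transgene, the role of a Cre recombinase and the age of the mice are stated in no label. Each group is 1 array (Affymetrix Mouse 430 2.0) hybridised with RNA pooled from 3 to 4 mice. No value therefore has a replicate error, no test between the arrays is possible, and a difference between them describes these 2 pools. The groups differ in time as well as in agent, and the effects of time and of tamoxifen cannot be told apart, nor can those of tamoxifen itself and of Akt.

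Akt is the kinase through which insulin and IGF1 act in muscle. Active Akt phosphorylates FoxO transcription factors, which keeps them out of the nucleus and away from genes of protein breakdown such as the muscle ubiquitin ligases, and it releases the mTOR complex that drives protein synthesis. Adult muscle in which Akt is switched on grows by enlarging its fibres.

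The members were all probe sets that the platform annotation assigns to a single gene, 34945 of 45101, covering 18193 genes. A probe set is a group of short oligonucleotides that together read 1 transcript. After dim probe sets were set aside, 19362 named probe sets and 11092 genes remained, and 5001 of these genes had 2 or more probe sets. Intensities are deposited values scaled to a common array median. They are given in the order oil 24 h, tamoxifen 24 h and tamoxifen 48 h and come from the brightest probe set of the gene unless another is named. Ratios are tamoxifen 48 h over oil 24 h. The words higher and lower for a gene mean a ratio of at least 2-fold (1 on the log2 scale).

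By that rule 413 genes, 3.72% of those compared, were higher at 48 h, and 301 genes, 2.71%, were lower. The median log2 ratio of all genes was 0.01, and the middle 50% of genes lay between -0.30 and 0.32. The smallest ratio counted as higher was 1.0017 in log2 and the largest not counted was 0.9995, so genes just inside and just outside the limit have almost the same ratio. Calls were more frequent among dim genes: 11.6% of the 2773 dimmest genes were past 2-fold, against 4.08% of the 2773 brightest. Most calls, 275 of the higher and 216 of the lower, rest on a single probe set.

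A stricter set was therefore taken from the 5001 genes with several probe sets. A gene was counted as agreeing when at least 2 of its probe sets were past 2-fold in the same direction and none pointed the other way. This left 80 genes higher, or 1.6% of the 5001, and 39 lower, or 0.78%. Of the 223 genes with several probe sets whose brightest was past 2-fold, 39 had a probe set on the other side of 0, and 89 had the others on the same side but fewer than 2 past 2-fold. Probe sets of a gene were read on the same arrays and may overlap in sequence, so their agreement checks the reading of the transcript and not the difference between mice. The robust standard deviation between probe sets of the same gene was 0.31 in log2. The tamoxifen 24 h reading lay between the oil and 48 h readings in 63 of the 80 higher genes and in 32 of the 39 lower genes. It was at least 2-fold from oil in 25 and 12 of them. Both ratios use the same oil array, and the genes were picked by their ratio to it, so these counts are not independent of it. The same counts were not taken over all genes, so they cannot be set against a general share.

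**Figure D1:**
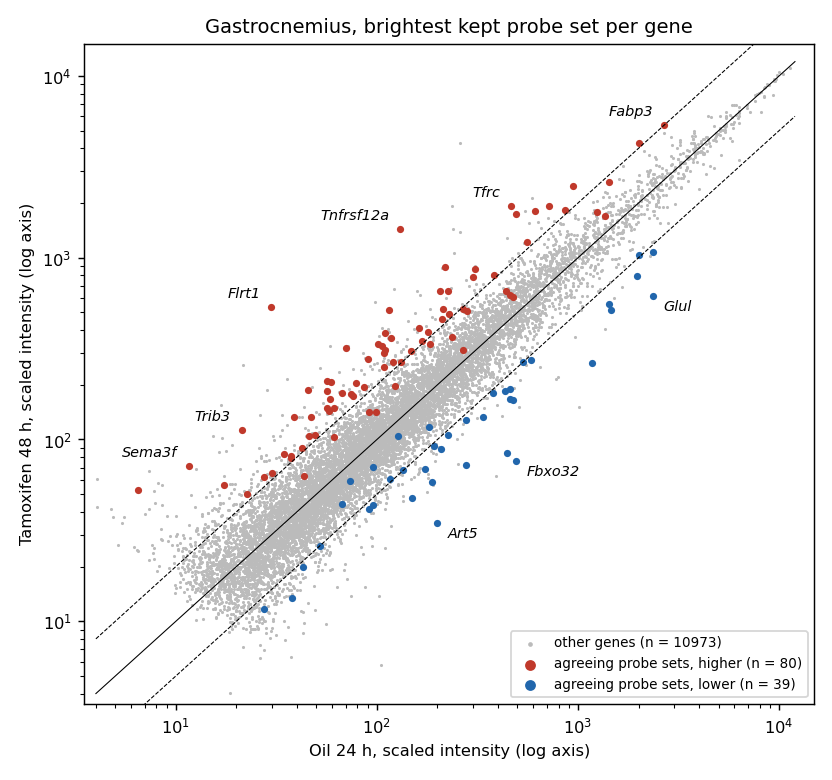
Scaled intensity on the oil 24 h array (x, log axis) against the tamoxifen 48 h array (y, log axis), 1 point per gene read on its brightest probe set. The solid line marks equal intensity and the dashed lines 2-fold; the 80 red and 39 blue genes have agreeing probe sets, and they include genes of low intensity such as Sema3f and of high intensity such as Fabp3.

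The largest agreeing increase belonged to Flrt1, which encodes a transmembrane protein with leucine-rich repeats and a fibronectin-type domain. It read 29.7 on oil, 311 at tamoxifen 24 h and 535 at tamoxifen 48 h, and its other probe set read 7.89, 80.3 and 159.9. Both tamoxifen arrays were far above oil, and the log2 ratios at 48 h were 4.17 and 4.34. Tnfrsf12a, also known as Fn14, is the receptor for the cytokine TWEAK. It read 130.4, 300.4 and 1445, and its other probe set 118, 354 and 1290.01, so most of its distance from oil was seen on the 48 h array. Trib3, a pseudokinase that can bind Akt and a target of the stress factor ATF4, read 21.2, 25.1 and 112 and 10.05, 27.8 and 88.3. Its first probe set was little above oil at 24 h. Sema3f, a secreted guidance factor, read 11.6, 88.9 and 71.5. The other probe set of Sema3f read 5.27, 21.6 and 32.1, very dim on oil and highest at 48 h. Pttg1, encoding securin, read 115, 783 and 516, and was above oil on both tamoxifen arrays but lower at 48 h than at 24 h. Its other probe set read 40.9, 238 and 218.

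The next genes of this ranking have varied roles. Mthfd2, a mitochondrial enzyme of one-carbon metabolism, read 34.6, 87.7 and 83.6 on its brightest probe set and 13.7, 70.4 and 127 on the other, so the size of its ratio depended on the probe set (1.27 and 3.21 in log2). Tfrc, the transferrin receptor that brings iron into cells, read 464, 1377 and 1917, and its 3 probe sets gave 1.24, 2.05 and 2.39. Mamstr, a coactivator of the muscle transcription factor MEF2, read 45.4, 79.6 and 187. Kmt5a, a histone methyltransferase, read 217, 650.1 and 889. Both genes climbed across the 3 arrays on the brightest probe set and on the other one.

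Several structural and membrane genes followed. Wdr1, which helps cofilin take actin filaments apart, read 205, 353 and 659, with closely spaced log2 ratios of 1.59, 1.61 and 1.69 over 3 probe sets. Dusp27, a phosphatase-like protein without enzyme activity that muscle sarcomeres need, read 109.9, 257 and 386. Atp1b2, a beta subunit of the sodium pump, read 307, 693 and 871. Frzb, a secreted Wnt antagonist, read 109, 206 and 299.7. Each of these 4 genes was already above oil at 24 h and higher again at 48 h. Trim7, a ubiquitin ligase that binds glycogenin, read 58.9, 84.3 and 206 and stood nearer to oil at 24 h.

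The remaining genes among the 20 highest were less even. Ripor2, an inhibitor of the GTPase RhoA, read 56.2, 128 and 210.1. Atp10a, a phospholipid flippase, read 17.4, 78.9 and 56.2, with its 24 h reading above the 48 h reading on all 3 probe sets. Ift27 of the intraflagellar transport machinery read 70.4, 168 and 318, and Lrtm1, a leucine-rich membrane protein, 90.2, 171 and 278. Iffo1, an intermediate filament family member, gave log2 ratios of 1.07 and 2.96, and Ccdc141 gave 0.46, 2.25 and 3.04. For these last 2 genes the probe sets agree on the direction and not on the size. On oil the probe sets with the largest ratios read 7.53 for Iffo1 and 6.45 for Ccdc141. These are near the floor of 4.05 to which dimmer values were raised. With a higher floor the log2 ratio of Ccdc141 on its brightest probe set was 1.91.

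**Figure D2:**
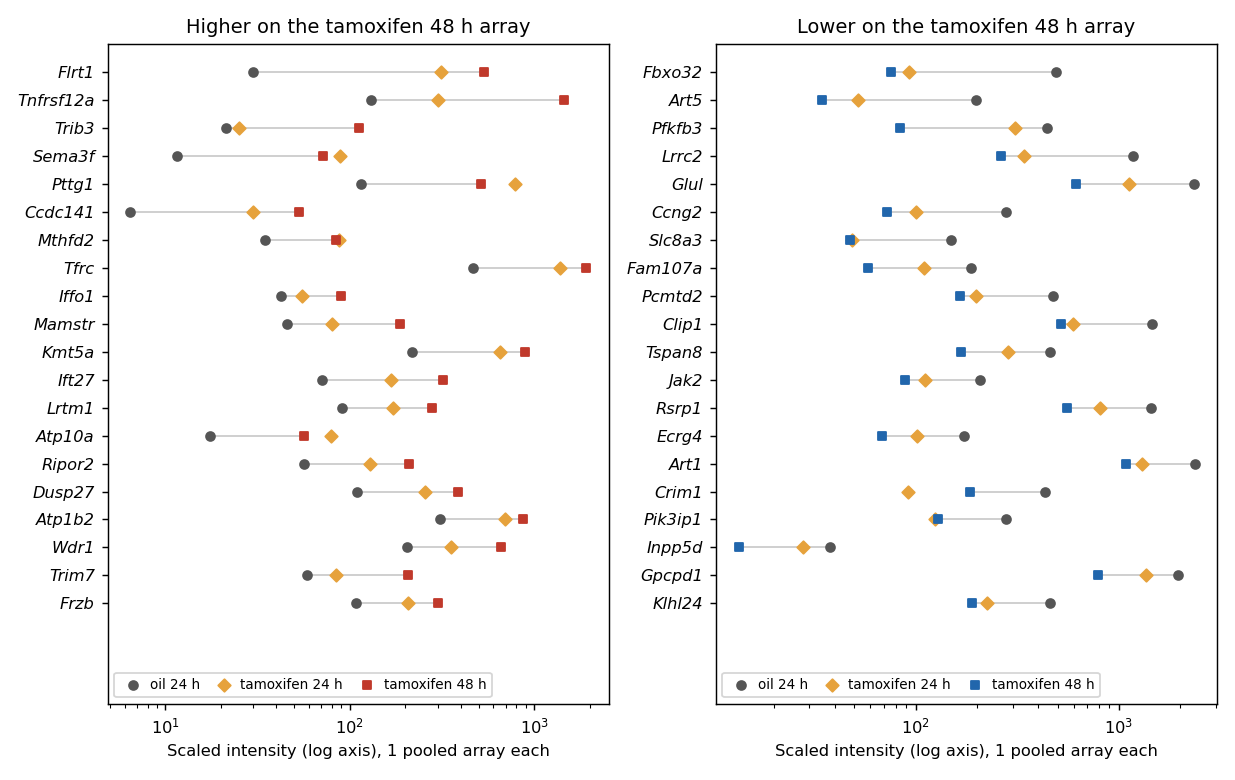
Scaled intensity (log axis) on the 3 arrays for the 20 highest and 20 lowest genes with agreeing probe sets, each read on its brightest probe set; circles are oil 24 h, diamonds tamoxifen 24 h and squares tamoxifen 48 h, with 1 pooled array each. In most genes the diamond lies between the circle and the square, while Pttg1, Sema3f, Mthfd2 and Atp10a among the higher genes and Crim1 and Pik3ip1 among the lower have it farther from oil than the square.

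The lowest agreeing gene was Fbxo32, encoding atrogin-1, a muscle ubiquitin ligase and a target of FoxO. Its brightest probe set by rank read 489.7 on oil, 93.3 at tamoxifen 24 h and 75.8 at tamoxifen 48 h, and the others 1051, 61.2 and 70.1 and 718, 73.5 and 43.8. All 3 were at a small part of the oil reading on both tamoxifen arrays, with log2 ratios of -4.04, -3.91 and -2.69. Art5 and Art1 encode ADP-ribosyltransferases of the muscle surface and secretory pathway and lie next to each other in the genome. Art5 read 199, 52.2 and 34.6, and its other probe set was at the floor at 48 h, which makes its log2 ratio of -4.55 a lower bound of the size. Art1 read 2363, 1295 and 1079. Both were below oil at 24 h and lower again at 48 h.

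Genes of intermediary metabolism were among the low ones. Pfkfb3, an enzyme whose product drives glycolysis, read 444, 307 and 83.96 and on its other probe set 106, 44.7 and 28.8. Glul, glutamine synthetase, read 2358, 1117 and 615 and 496, 256 and 133, with log2 ratios of -1.94 and -1.90. Gpcpd1, an enzyme of glycerophosphocholine breakdown, read 1957, 1366 and 792. In Glul and Gpcpd1 the 24 h reading was intermediate.

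Others act in signalling. Pik3ip1, an inhibitor of PI3K, read 278, 125 and 128. Inpp5d, the SHIP1 phosphatase of the lipid that PI3K makes, was dim and read 37.8, 27.98 and 13.4. Both encode brakes on the pathway that Akt belongs to. Jak2, the kinase of growth hormone and cytokine receptors, read 208, 111 and 89.05. Ccng2, cyclin G2, which is induced when growth stops, read 279, 100.02 and 72.7. Crim1, a membrane protein that binds bone morphogenetic proteins, read 434, 92.2 and 185 and was lower at 24 h than at 48 h on this probe set.

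The rest of the 20 lowest covered membrane, cytoskeletal and little-described proteins. Slc8a3, a sodium-calcium exchanger of the plasma membrane, read 149.8, 48.6 and 47.8, with nearly equal readings at both tamoxifen times. Clip1, which binds the growing ends of microtubules, read 1457, 596 and 519, and its 5 probe sets gave log2 ratios of -1.97, -1.55, -1.49, -1.42 and -0.94. Tspan8, a tetraspanin, read 457, 284 and 167, and Ecrg4, a secreted peptide precursor, 174, 102 and 68.5. Fam107a, a glucocorticoid-inducible actin-binding protein, read 188, 109.8 and 58.1. Lrrc2, a leucine-rich repeat protein, read 1174, 341 and 263. Pcmtd2 read 475, 199 and 166, Rsrp1 1433, 806 and 559 and Klhl24, an adaptor of a ubiquitin ligase, 459, 225 and 189.99. All 9 of these genes were below oil on both tamoxifen arrays.

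**Figure D3:**
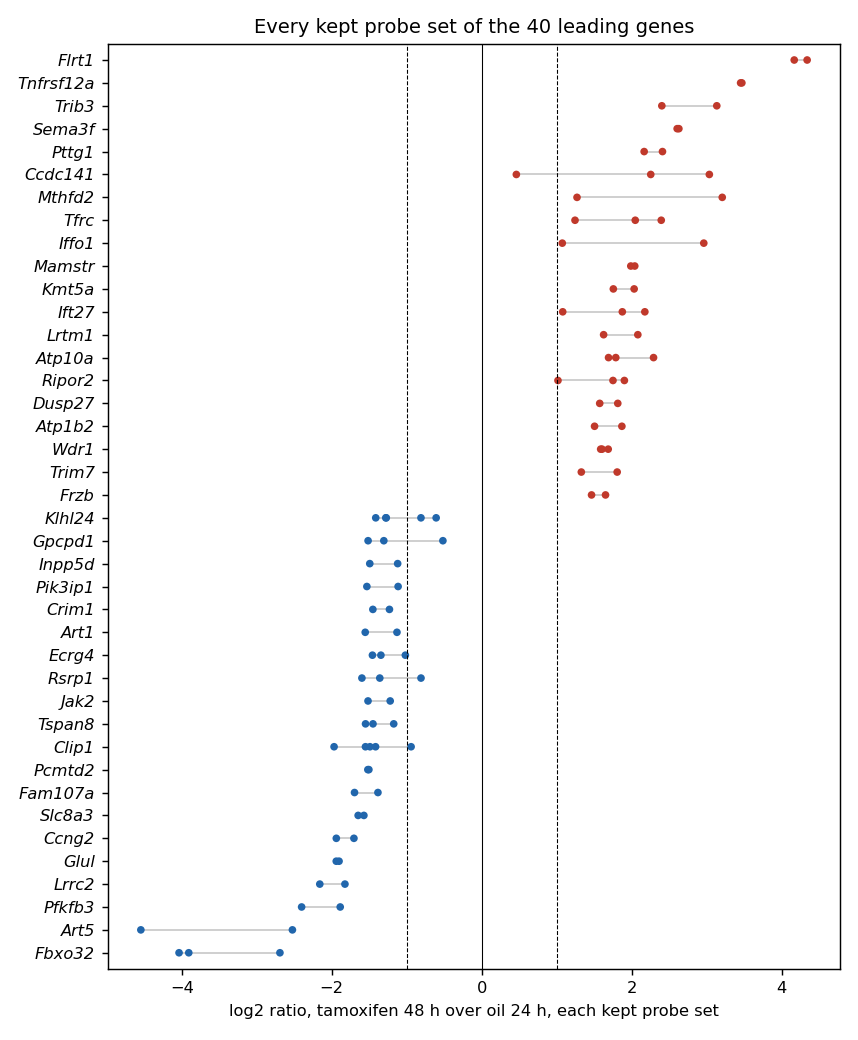
The log2 ratio of tamoxifen 48 h over oil 24 h for every kept probe set of the 20 highest and 20 lowest agreeing genes, 1 point per probe set, joined by a line within a gene; dashed lines mark 2-fold. Flrt1, Tnfrsf12a, Sema3f, Glul and Pcmtd2 have probe sets at nearly the same value, while Mthfd2, Iffo1, Ccdc141 and Art5 are spread over more than 1 log2 unit.

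Because Fbxo32 and Ccng2 are FoxO targets, the promoters of the agreeing genes were searched for the FoxO core GTAAACA on both strands, in RefSeq windows (GRCm38.p6) from 250 bases before to 50 after each gene's start. Of 39 lower genes 34 had a window, and 4 of these (11.8%) held the core; so did 1 of 59 higher genes with a window (1.69%), 272 of 9009 genes compared (3.02%) and 1095 of all 27025 genes with a window (4.05%). Neither gene that prompted the search was among the 4: Fbxo32 had no window, and no core was found for Ccng2. The shares rest on few genes and were not tested. The stretches below show where the core lies in 3 of the 4 lower genes, to let it be seen in its setting. Each is printed 5′ to 3′ on the gene's strand with the core in capitals (in Tspan8 as its reverse complement), and a match does not show that a factor binds there.
Rsrp1 (chr4:134923375-134923426, + strand, core beginning 230 bases before the start): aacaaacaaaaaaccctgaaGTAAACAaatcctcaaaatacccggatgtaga
Tspan8 (chr10:115817241-115817283, + strand, 18 bases before the start): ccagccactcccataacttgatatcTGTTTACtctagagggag
Fmo2 (chr1:162898494-162898546, - strand, 28 bases before the start): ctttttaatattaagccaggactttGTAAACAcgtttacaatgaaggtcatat
Fmo2, a flavin monooxygenase that was also lower with agreeing probe sets, read 225, 214 and 106 and gave log2 ratios of -1.37, -1.17, -1.09 and -1.06 over its 4 probe sets. On the brightest of them it was near oil at 24 h and lower at 48 h. Fmo2, Ddit4l, Aldh18a1, Mef2c, Jag1 and Dleu2 were named after their values were seen. The other genes follow the naming rule, apart from examples marked as such below. The lists and members that follow are given against the background of 3.72% of genes higher and 2.71% lower.

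Most genes of the targeted pathway itself were within 2-fold in transcript level. Akt1 read 100.2, 133 and 112 and Akt2 220.2, 279.8 and 231. It was not examined whether their probe sets also read the transgene. Esr1, oestrogen receptor alpha, read 225, 256 and 251. Of 32 genes of the Akt, PI3K and mTOR pathway compared, 1 was higher (Trib3) and 2 were lower (Pik3ip1 and Ddit4). The list median was -0.01 and turned positive when more dim probe sets were kept. Of the 19 genes with 2 or more probe sets, 1 met the agreement rule as higher and 2 as lower, against 80 and 39 of all 5001 such genes. Ddit4, an inhibitor of mTOR complex 1, read 269, 372 and 122 and was above oil at 24 h and below it at 48 h. Its relative Ddit4l read 2019, 1478 and 1039, just inside 2-fold on the brightest probe set but past it on the other 2 (-1.11, -1.10 and -0.96). Among 14 insulin and IGF ligands, receptors and binding proteins, the only gene past 2-fold was Grb14, an adaptor that blocks the insulin receptor. It read 138, 207 and 285. Igf1 read 682, 645 and 586.

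FoxO-linked genes differed in both directions. Of 21 compared, 4 were lower, 1 was higher, and the median was -0.18. The lower genes were Ccng2, Pik3ip1, Klf15 and Depp1. Klf15, a transcription factor of amino acid and lipid breakdown, read 253, 125 and 73.1, and Depp1 read 179, 159 and 61.7. Angptl4, an inhibitor of lipoprotein lipase, went the other way and read 28.3, 46.7 and 187. Foxo1 read 157, 228 and 154 and Foxo3 134, 96.7 and 98.4, both within 2-fold. Of 18 ubiquitin ligase and atrophy genes only Fbxo32 passed 2-fold. Trim63 (MuRF1), the other well-known ligase of muscle wasting, read 2111, 744 and 1149 and was within 2-fold of oil at 48 h.

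Protein breakdown by other routes stayed mostly within 2-fold. Gabarapl1, a membrane-bound component of the autophagosome, was the only gene past 2-fold of 27 autophagy and mitophagy genes. It read 379.6, 268 and 180.3, and both its probe sets were lower. The list median was -0.13, and 10 of its genes were above 0. No member of 21 lysosomal genes or of 35 proteasome genes passed 2-fold. The largest differences there were in Lamp2, a lysosomal membrane protein (1304 to 841), and Psmd14, a deubiquitinase of the proteasome cap (887 to 1352). Next came Ctsl (-0.61 in log2) and Ctsk (-0.59) of the first list and Psmb8 (-0.56) and Psme4 (-0.55) of the second. The probe sets of Lamp2 ran from -0.63 to 0.14 in log2, and the other probe set of Ctsl, a dim one, was at 0.64.

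Smad proteins carry signals of myostatin, activin and bone morphogenetic proteins, and the series title names Smad2 and Smad3. Smad2 read 68.4, 88.3 and 96.1 and Smad3 333, 397 and 365, and the probe sets of each lay on both sides of 0 (-0.43 to 0.49 and -0.09 to 0.13 in log2). Among 42 genes of the pathway, 2 were higher and 2 lower, with a median of -0.05 that turned positive when more dim probe sets were kept. Inha, the inhibin alpha subunit, read 30.5, 42.2 and 105, and Tgfb1 read 28.5, 53.7 and 58.2. Acvr2b, the receptor that myostatin binds, read 95.3, 71.9 and 43.6 with both probe sets lower, and Bmp2 read 39.1, 30.6 and 17.6.

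Genes of the ATF4 response, which cells use when amino acids or protein folding fall short, lay mostly above oil. Of 25 compared, 7 were higher and 1 (Ddit4) was lower; 20 were above 0 and the median was 0.34. The higher ones were Trib3, Ddit3, Atf3, Slc7a5, Mthfd2, Aldh18a1 and Psat1. Ddit3, the stress factor CHOP, read 106, 204 and 412, though its other probe set was at 0.78 in log2. Aldh18a1, which makes the precursor of proline, read 48.9, 70.6 and 106, and 3 of its 4 probe sets were past 2-fold. Psat1 of serine synthesis read 37.4, 55.2 and 81.1. Trib3, Aldh18a1, Psat1 and Mthfd2 met the agreement rule.

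The supply of amino acids for protein synthesis showed a mixed picture. Among 32 transporters, 2 were higher and 3 lower. Slc7a5, the large neutral amino acid exchanger, read 13.5, 27.7 and 38.9, and Slc7a8, another light chain of this family, 31.6, 35.98 and 66.6. Slc43a1, which carries the same amino acids, read 93.6, 31.7 and 29.03, and Slc15a2, a peptide transporter, 102, 41.6 and 13.8. Slc7a6 read 97.8, 74.4 and 48.1, with its other probe set at 0.14 in log2. Of 19 serine, one-carbon and polyamine enzymes, 3 were higher (Psat1, Mthfd2 and Azin1) and 2 lower (Mthfd1l and Smox). Mthfd1l, another mitochondrial enzyme of one-carbon metabolism, read 34.9, 18.6 and 16.1 and went the opposite way to Mthfd2. In the polyamine branch, Azin1, which protects ornithine decarboxylase from degradation, read 225, 442 and 658, and Smox, which oxidises spermine, 796, 383 and 222. Azin1 was above oil and Smox below it on both tamoxifen arrays. Of 35 aminoacyl-tRNA synthetase genes, 23 were above 0 with a median of 0.23, but only the mitochondrial alanine enzyme Aars2 passed 2-fold (8.19, 50.3 and 57.8), from a dim reading on oil. Of 25 genes of amino acid breakdown and synthesis, only Glul passed 2-fold.

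The endoplasmic reticulum folding list had the highest median of all 50 lists that are not cell type markers, 0.42, with 28 of 32 genes above 0, against 5613 of all 11092 genes. Most of these differences were small: 3 genes were higher and 1 lower. Hspa5, the main chaperone of the compartment (BiP), read 858, 1396 and 1834, and its 3 probe sets gave 0.03, 1.10 and 1.45. Manf, a secreted folding factor, read 254, 451 and 522, and Pdia4, a disulphide isomerase, was dim at 11.1, 18.3 and 25.4. Ero1b, an oxidase of the compartment, went the other way, at 42.6, 30.2 and 18.2.

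Hspa5 is the classic carrier of the endoplasmic reticulum stress element (ERSE), and it was the only agreeing gene whose promoter window held it on either strand. The element was in 1 of 59 higher genes (1.69%), none of 34 lower genes, 14 of 9009 genes compared (0.155%) and 0.137% of all 27025 genes with a window. It is printed here with 25 bases on each side and the element in capitals.
Hspa5 (chr2:34772000-34772068, + strand, element beginning 65 bases before the start): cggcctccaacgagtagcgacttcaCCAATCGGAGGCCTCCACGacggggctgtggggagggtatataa

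Cytosolic chaperones went both ways. Of 24 genes, 3 were higher and 2 lower, with a median of 0.33. The small heat shock protein Hspb8 read 943, 1914 and 2472, with all 3 probe sets past 2-fold, and Hspb3 read 472, 1058 and 991. The inducible Hsp70 genes Hspa1a and Hspa1b read 69.3, 43.9 and 20.6 and 148, 88.5 and 60.3; they are near-identical neighbours whose probe sets may read both. Smyd1, a methyltransferase that works with myosin chaperones, read 895, 1211 and 1824, but its 5 probe sets ran from -1.71 to 1.53 in log2 and do not settle a direction.

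Of 74 mitochondrial ribosomal proteins 56 were above 0 (75.7%, against 50.6% of all genes), and the median of 0.19 was positive under each of the 8 alternatives. Medians were 0.11 for 45 ribosome biogenesis genes, 0.11 for 43 translation factors and -0.02 for 39 cytosolic ribosomal proteins, the last turning positive when more dim probe sets were kept. Few members passed 2-fold. Bysl, needed for the small ribosomal subunit, read 75.5, 152 and 176, Rrp12, an export factor of ribosomal subunits, 45.9, 53.6 and 95.6, and Eef1e1, a scaffold of the tRNA synthetase complex, 305, 539.7 and 663. Mrps27 read 59.6, 96.6 and 138. In the cytosolic ribosomal list Rpl39 (40.5, 95.6 and 82.6) and Rps27 (51.2, 47.8 and 21.2) were past 2-fold in opposite directions, both from dim probe sets.

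**Figure D4:**
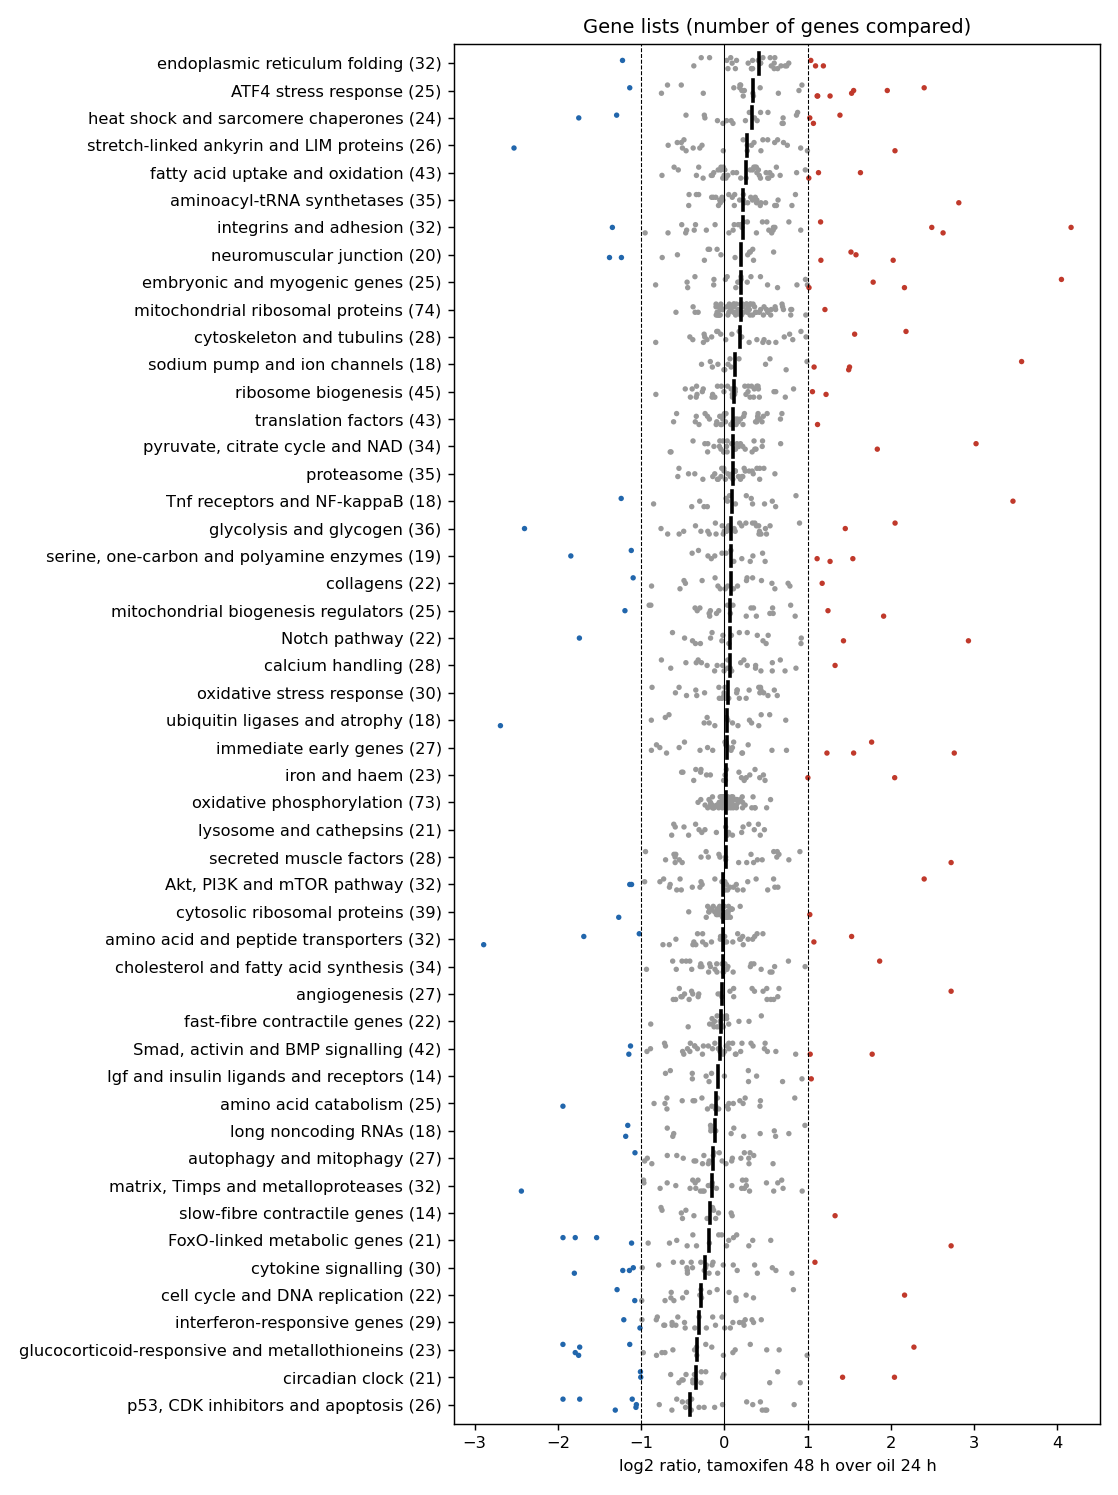
The log2 ratio of tamoxifen 48 h over oil 24 h for every gene compared in the 50 gene lists, 1 point per gene on its brightest probe set, with the number of genes in brackets; black bars are list medians, dashed lines mark 2-fold and red and blue points lie past it. Endoplasmic reticulum folding (median 0.42) and the ATF4 response (0.34) are at the top, and circadian clock (-0.34) and the p53 and CDK inhibitor list (-0.41) at the bottom.

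Genes of fuel use followed. Of 43 genes of fatty acid uptake and oxidation 3 were higher, none was lower and the median was 0.26. All 3 higher genes met the agreement rule. Ucp3, a mitochondrial carrier induced by fatty acids, read 106, 101 and 329 and was at the oil level at 24 h. Plin5, a lipid droplet protein of oxidative tissue, read 179, 402 and 392.2, and Fabp3, the fatty acid carrier of heart and muscle, 2672, 4487 and 5401. On these probe sets both were nearer to their 48 h level than to oil at 24 h, but the other probe set of Fabp3 read 23.2, 24.2 and 49.4 and was near oil at 24 h.

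Motif matches in these promoters are shown for a gene of each kind. The myogenic E-box CAGCTG, which MyoD and its relatives recognise, lay in the windows of 15 of 59 higher genes (25.4%), 11 of 34 lower genes (32.4%) and 1649 of 9009 genes compared (18.3%). The composite TGATGNAA, to which ATF4 binds with C/EBP factors, was in 2 of 59 higher genes (Trib3 and Fabp3; 3.39%), none of 34 lower genes and 246 of 9009 genes compared (2.73%). Fabp3 carries it as its reverse complement. Among all genes with a window, 18.3% held the myogenic E-box and 4.51% the composite. Of the other motifs searched on both strands, the clock E-box CACGTG was in 11.9% of higher, 8.82% of lower, 11.9% of compared and 8.09% of all genes. The MEF2 site was in 5.08%, 5.88%, 2.43% and 3.70%, and the CArG box in 1.69%, none, 1.68% and 1.81%. None of the spelled motifs contains another.
Ucp3 (chr7:100472926-100472981, + strand, E-box beginning 40 bases before the start): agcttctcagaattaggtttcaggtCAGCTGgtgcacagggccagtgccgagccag
Fabp3 (chr4:130308662-130308719, + strand, composite beginning 51 bases before the start): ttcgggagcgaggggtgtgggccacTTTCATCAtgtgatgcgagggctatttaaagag

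Glucose metabolism differed at few but distinct steps. Of 36 genes, 2 were higher and only Pfkfb3 was lower. Slc16a3, the lactate exporter MCT4, read 211, 408 and 874, and Fbp2, the muscle fructose bisphosphatase, 277, 411 and 758. Both were above oil at 24 h and higher again at 48 h. In the pyruvate, citrate cycle and NAD list, Pcx, which makes oxaloacetate from pyruvate, read 114, 309 and 408, and Nmrk2, which makes NAD from nicotinamide riboside, 237, 1229.8 and 1927. Both were above oil by 24 h. No gene of 73 oxidative phosphorylation subunits passed 2-fold, and the list ran from -0.32 to 0.56 in log2, with Sdhc (0.56), Ndufa12 (0.51) and Ndufs5 (0.37) farthest from 0.

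Among regulators of mitochondrial genes, Ppargc1b, a coactivator of the PGC-1 family, read 195, 194 and 463. Pparg read 6.45, 32.3 and 24.3, from a very dim oil reading, and Nrf1 read 33.6, 36.5 and 14.7. In sterol synthesis, where the list median was -0.02 and turned positive when more dim probe sets were kept, only Dhcr7 passed 2-fold (17.3, 49.8 and 63.1). Iron uptake and haem synthesis had Tfrc and Alas1, the first enzyme of haem synthesis (631, 1221 and 1266), past 2-fold, with the other probe set of Alas1 at 0.15 in log2. No gene of the 30 in the oxidative stress list was past 2-fold; Txnrd1, a thioredoxin reductase, read 392.4, 285 and 215, and Gstm4 and Txn2 were at 0.64 and 0.60 in log2.

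Contractile genes of adult fibres were little different. None of 22 fast-fibre genes passed 2-fold; Tcap, which caps titin at the Z-disc, was the farthest from oil, at 6349, 4196 and 3439, followed by Ldb3 (0.44 in log2) and Mylk2 (-0.43). Of 14 slow-fibre genes, 3 were above 0 and the median was -0.17, with only the calcium buffer Casq2 past 2-fold (187, 221 and 471). Genes of developing or regenerating muscle stood out more. Mybph, a myosin-binding protein, read 259, 1872 and 4296, and Actc1, the cardiac actin of embryonic muscle, 1459, 2929 and 6545. Cdh15, the cadherin of myoblasts, read 43.5, 104 and 150.2, and Myog, the transcription factor myogenin, 62.6, 59.2 and 127. Of the 25 in that list, 4 were higher and none lower. Each of these 4 rests on 1 probe set. Mef2c had 5, all above 0 and 2 past 2-fold, and read 1421, 2021 and 2602.

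Excitability and the neuromuscular junction contributed genes in both directions. Of 18 pump and channel genes, 4 were higher and none lower. Atp1b4 read 21.6, 71.2 and 257, and Kcnj11, the pore of the ATP-sensitive potassium channel, 110.3, 229 and 311. Cacnb1, a subunit of the muscle calcium channel, read 381, 477 and 804. With Atp1b2, described above, Kcnj11 and Cacnb1 met the agreement rule. At the junction, Ache, which breaks down acetylcholine, read 47.8, 89.6 and 195, Chrna1, an acetylcholine receptor subunit, 120.2, 182 and 360.1, and Dok7, which activates the junction kinase MuSK, 86.5, 111 and 193. Ufsp1, a neighbour of Ache in the genome, read 83.5, 127 and 240.02. Lower were Agrn, which encodes the junction organiser agrin (65.3, 46.97 and 27.7), and Erbb2, a neuregulin co-receptor (23.6, 24.4 and 9.08), both dim.

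The cytoskeleton and adhesion lists held several large single differences. Tuba8, an alpha tubulin of muscle, read 609, 1429 and 1803, with both probe sets higher. Tubb6, a beta tubulin, read 71.6, 173 and 325, while its other probe set was at -0.42 in log2. Xirp1, a repair-associated protein that binds actin, read 158, 363 and 655, and Fhl3, a LIM protein, 55.8, 71.7 and 9.66. Itga5, the fibronectin receptor subunit, read 7.32, 30.2 and 41.2, from a dim reading on oil. Itgb1bp2 (melusin), which binds the beta1 integrin tail in muscle, read 653, 1093 and 1457. Itgb8 was lower at 38.8, 23.9 and 15.3. In the matrix lists, Col1a1 read 536, 943 and 1211 with its other probe set at 0.13 in log2, Col4a4 42.7, 30.99 and 19.98 with both probe sets lower, and Cilp2 74.5, 72.9 and 13.7.

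Among the 50 lists that are not cell type markers, growth arrest and clock genes had the lowest medians. Of 26 genes of p53, CDK inhibitors and apoptosis, 6 were lower, none was higher, and the median was -0.41. Besides Ccng2 they were Gadd45g, a stress-induced cell cycle regulator (507, 319 and 152), Eda2r (159, 46.8 and 64.3), Cdkn2d (186, 127 and 86.3), Cdkn1b, the inhibitor p27 (352, 227 and 169), and Bad (98.02, 48.3 and 47.1), whose other probe set was at 0.08 in log2. Of 22 cell cycle and DNA replication genes, 7 were above 0 and the median was -0.28, negative under each of the 8 alternatives. The list has 37 members, and those not compared include the proliferation genes Mki67, Top2a, Cdk1, Ccna2 and Ccnb1. Past 2-fold, Pttg1 was higher, and Ccne2 (58.3, 28.5 and 23.8) and Gmnn (97.5, 51.1 and 46.2) were lower.

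In the circadian list 5 of 21 genes were above 0 and the median was -0.34. Bhlhe41, a repressor of the clock, read 11.9, 16.01 and 49.2, and Nr1d1 (Rev-erb alpha), another, 109.7, 182 and 294. Dbp, an output factor, read 1037, 505 and 516, with its other probe set at -0.29 in log2. Rora, an activator, read 536, 352 and 267, with all 8 of its probe sets below 0. The clock hours at which muscles were taken are stated in no label, and their part in these values was not tested. Of 23 glucocorticoid-responsive genes, 5 were lower and 1 was higher. The lower ones were Glul, Klf15, Ddit4, Gadd45g and Arrdc2 (189, 127 and 56.2), the higher was Lcn2 (17.7, 129 and 86.1).

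Cytokine and immediate signalling genes also diverged. Of 30 cytokine signalling genes, 4 were lower, 1 was higher and the median was -0.23. Socs3, the feedback inhibitor of STAT3 signalling, read 117, 55.1 and 33.6, though another of its probe sets was at -0.01 in log2. Pim1 read 76.9, 28.3 and 34.9 and Pim3 420.1, 245 and 197. Both encode kinases that STAT factors induce. Socs2, the feedback inhibitor of growth hormone signalling, was higher at 229, 376 and 488, with all 5 probe sets above 0. Immediate early genes were higher in 4 of 27: Nr4a3 (5.49, 21.5 and 37.3), Egr1 (115, 193 and 393), Atf3 (28.1, 58.00 and 82.6) and Klf10 (134, 169.7 and 315). The oil reading of Nr4a3 was near the floor of 4.05. In the Notch list Lfng (4.89, 32.1 and 37.4) and Hes6 (28.1, 86.7 and 75.96) were higher and Dtx1 (29.7, 18.8 and 8.88) lower. On oil Lfng was also near the floor. The only member of that list to meet the agreement rule was Jag1, a Notch ligand, which read 181, 122 and 118 and gave log2 ratios of -1.86, -1.14 and -0.62. Among TNF receptor and NF-kappaB genes Tnfrsf12a was the only higher one of 18. Tnfrsf19 was lower at 55.9, 27.1 and 23.7, with its other probe set at 0.31 in log2.

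The labelled tissue was checked against marker genes, and signs of other cell types were measured the same way. All 14 muscle fibre markers were compared, none was past 2-fold, and their intensities summed to 100663, 99082 and 101002. The log2 ratios farthest from 0 were those of Casq1 (0.38), Myh2 (0.30) and Ryr1 (-0.28). Lists of vessel, connective tissue, fat and nerve cells had lower sums at 48 h, with negative medians under each alternative run. Endothelial markers summed to 2066, 1975 and 1639.7 over 12 genes, of which 3 were above 0. None was past 2-fold; Vwf read 298, 174 and 149, Emcn 234, 184 and 159 and Kdr, a receptor of VEGF, 75.9, 128 and 105, above oil. Smooth muscle and pericyte markers summed to 6667, 5235 and 5248, and Myh11 read 155, 94.5 and 74.8. Tendon and fibroblast markers summed to 15034, 12718 and 12776, with 2 of 13 above 0. Their only member past 2-fold, Col1a1, was higher (536, 943 and 1211), with its other probe set at 0.13 in log2. Adipocyte markers summed to 16771, 15337 and 12691. Among the adipocyte markers, Cidea, a lipid droplet protein, was higher (7.72, 19.98 and 23.8) and Retn, which encodes resistin, lower (78.7, 79.9 and 38.6). Macrophage markers summed to 2402, 2363 and 2069, where Cd163 read 188, 142 and 89.3, and their median changed sign under 3 of 8 alternatives. Schwann cell and nerve markers summed to 2405, 2328 and 2159.6, with only 1 of 8 above 0 and Cdh19 lower (37.7, 28.05 and 14.1). Satellite cell markers summed to 1176, 940.1 and 1032, with 5 of 10 above 0 and a member past 2-fold each way. Sdc4, which myofibres also express, read 390.3, 44.5 and 62.7, but its other probe set was at 0.02 in log2, and Cdh15, given above, was higher. Skin markers, of which 3 of 9 were compared, had a higher sum at 48 h (161, 214 and 202). Their member Trp63, a transcription factor of epidermis, read 37.5, 69.2 and 79.3 with 2 of its 3 probe sets past 2-fold and none below 0.

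Few markers of blood-borne cells could be read. Only 1 of 12 lymphocyte markers, 1 of 8 red cell markers and 4 of 11 neutrophil markers had a kept probe set. The first was Ighm (232, 286 and 274) and the second Alas2 (39.1, 35.7 and 38.4). Only 3 of the 8 red cell markers had any probe set assigned to a single gene. Most of that list, where the haemoglobin genes Hba-a1, Hbb-b1 and Hbb-bt were not compared, was thus left out for annotation and not for dimness. The neutrophil genes S100a8 (82.9, 56.2 and 25.6) and S100a9 (63.2, 38.02 and 15.5) were lower, and Lcn2, which is not particular to neutrophils, was higher. Of 29 interferon-responsive genes, 2 were lower (Gbp3 at 49.1, 22.6 and 21.2 and Ifit2 at 63.2, 42.97 and 31.3), with a median of -0.30. In pooled whole muscle, fewer cells of a type and less RNA per cell cannot be told apart. The part of these cell types in the collagen, cytokine, interferon and clock values above was not tested.

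**Figure D5:**
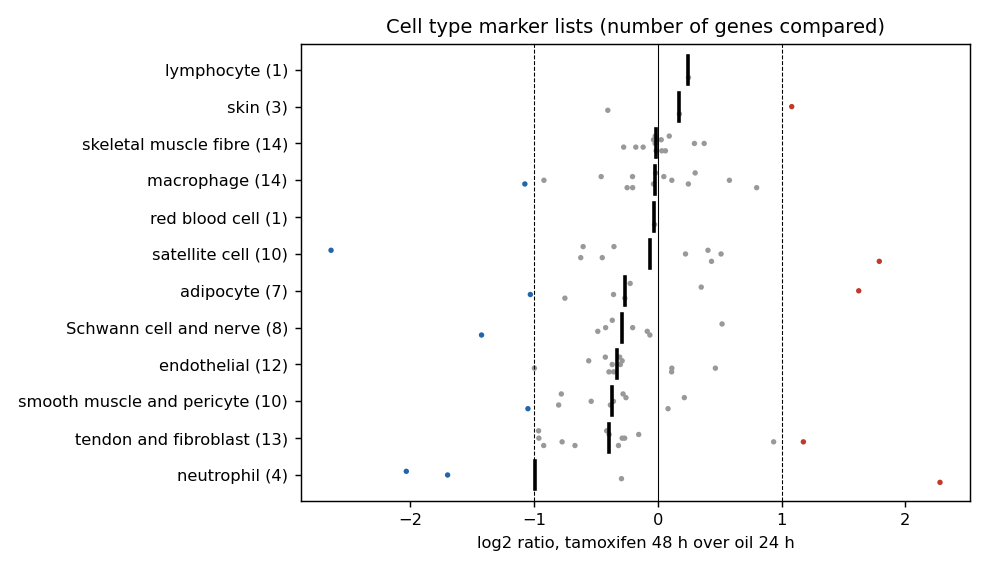
The log2 ratio of tamoxifen 48 h over oil 24 h for every marker gene compared in 12 cell type lists, 1 point per gene on its brightest probe set, with the number of genes in brackets; black bars are list medians, dashed lines mark 2-fold and red and blue points lie past it. Muscle fibre markers cluster near 0, while endothelial, smooth muscle and tendon markers lie mostly below 0.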

How the data were processed

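Gastrocnemius RNA was measured on 3 arrays, 1 pooled array a group. The deposited values are linear intensities, 1 per probe set, and no label or header used here states how the authors summarised, background-corrected and scaled them. Each array was scaled to a common median (oil times 1.01, tamoxifen 24 h times 0.944, tamoxifen 48 h times 1.05), and values under the 25th percentile of all scaled values, 4.05, were raised to that floor. A probe set was kept when its mean percentile rank over the 3 arrays was at least 0.5, and the brightest was the 1 with the highest mean rank. Left out were 64 control probe sets, 9160 that the platform annotation does not list and 932 with several genes. Symbols were updated through gene identifiers to RefSeq (GRCm38.p6), which also supplied the promoter windows and the 7 motif searches.

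The text names the 20 highest and 20 lowest genes with agreeing probe sets (clone and predicted loci left out), up to 6 members past 2-fold in each of 62 gene lists, up to 3 with the largest difference in lists with none, and 10 genes of the Akt, FoxO and Smad pathways. The members and lists were chosen with earlier results of these data known. With 1 array a side there were no tests; 8 alternatives of scaling, filter, floor and gene value were run. Calculations used Python 3.11.15, numpy 2.4.6 and pandas 2.3.3 and were tested on simulated data. The number of arrays limits the precision.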

Additional observations from a re-analysis of the deposited data

Results flagged for a closer look

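Of the kept probe sets, 2442 are not assigned to a single gene and were used in no comparison. Of these, 85 were at least 2-fold higher at tamoxifen 48 h than on oil (3.48%) and 115 at least 2-fold lower (4.71%). Among kept probe sets with a gene the shares were 3.91% higher and 3.10% lower. They were set out here because they show differences in data that the gene comparison leaves out; the transcripts they read were not examined.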

How the results depend on the processing

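The choice that moved the counts most was the filter on dim probe sets. With a minimum mean rank of 0.25 there were 1007 genes higher and 895 lower, and 148 and 69 with agreeing probe sets. With a minimum of 0.75 there were 188 and 111, and 39 and 21 agreeing, among fewer genes tested (6760). Under the other 6 alternatives each of these counts stayed within 1.5 times its main value; without scaling, 49.2% of calls were higher against 57.8%, and the median of all genes was -0.05. The 40 leading agreeing genes were past 2-fold in the same direction under each of the 8 alternatives, apart from 7 that the 0.75 filter left out. These 40 were picked as the most extreme by their median ratio over probe sets. Under the alternative that uses this median the outcome was therefore fixed, and under the others it was likely. Of values for single named genes 1348 stayed close and 45 moved, and of list medians 387 and 107. No replicate could be left out, since each group is 1 array. No paired analysis was possible because each group has 1 sample. Differences near 2-fold among dim genes are the least certain.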

Other observations

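Some genes that were past 2-fold, or had agreeing probe sets, lie side by side in the genome. Among 6658 pairs of adjacent protein-coding genes that were both compared, both genes met that condition in 33 pairs, and they differed from oil in the same direction in 28. Of all genes compared, 3.72% were higher and 2.71% lower. How many such pairs these shares would give by themselves was not worked out, so the count of 33 is not read as clustering. Over all 6658 pairs the share in the same direction was 51.5%. Examples, chosen after their values were seen, were Chil1 with Mybph (log2 ratios 2.06 and 4.05) and Obsl1 with Inha (1.21 and 1.78). Art5 with Art1, Ache with Ufsp1, S100a8 with S100a9 and Hspa1a with Hspa1b are described above. Some of these pairs are related in sequence, and whether their probe sets read each other's transcript was not tested.

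Long noncoding RNAs included 2 genes past 2-fold of 18 compared, Meg3 and Neat1, both lower on the brightest probe set. The other probe set of Neat1 was at 0.22 in log2. Of the 7 probe sets of Meg3, 2 were past 2-fold, 2 were above 0 (0.07 and 0.31), and the median was -0.43. Dleu2 was the only gene of the list to meet the agreement rule, with log2 ratios of -0.61, -1.01 and -1.13. The list median was -0.11 and changed sign when the median over probe sets was used. In the whole comparison 3 genes were past 2-fold in opposite directions at 24 h and 48 h.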
